A study of Mus musculus with 8 samples.

Results

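The G1 phase machinery was followed in mouse splenic T cells through 10 genes: the cyclins Ccnd2, Ccnd3, Ccne1 and Ccne2, the cyclin-dependent kinases Cdk4, Cdk6 and Cdk2, and the kinase inhibitors Cdkn1a, Cdkn1b and Cdkn2c. They are a list of names, drawn up with earlier results of these data known, and were read from the array probes whose accession is a RefSeq transcript of one of them. The array held 15 such probes. For each gene the probe with the highest mean log2 signal over the 8 arrays was used, and 9 of the 10 genes passed the filter on dim probes that left 15138 genes in the whole study. The exception was Ccne2, whose only probe was well above background on 1 of the 8 arrays.

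Entry into the cell cycle is driven by D-type cyclins, which bind Cdk4 or Cdk6, and then by E-type cyclins, which bind Cdk2; both kinds of complex phosphorylate the retinoblastoma protein and so release E2F transcription factors that switch on S phase genes. INK4 inhibitors such as Cdkn2c bind Cdk4 and Cdk6, whereas Cip/Kip inhibitors such as Cdkn1a and Cdkn1b bind whole cyclin-kinase complexes and mainly restrain Cdk2. Resting T cells sit outside the cycle with much Cdkn1b protein, and signals from the antigen receptor, CD28 and interleukin-2 move them into G1.

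Total RNA came from the splenic T cells of wild-type C57BL/6 mice (Lsp1+/+, here WT) and of Lsp1-deficient mice (Lsp1-/-, here KO), backcrossed to C57BL/6 for 10 generations and aged 8 to 12 weeks. Lsp1 encodes a leukocyte protein that binds actin filaments. Cells of each genotype received either medium alone or anti-CD3/CD28 antibodies for 6 h, which stand in for the antigen receptor signal and for costimulation, and each of the 4 groups was measured on 2 arrays. The labels give a replicate number and no animal, so the p-values here reflect array-to-array spread that may be technical, and neither pooling of mice nor the purity of the T cells is stated. Levels below are log2 signals relative to the 75th percentile of the same array, so a level of 0 equals that percentile and a difference of 1 is a doubling. Levels of different probes cannot be set against each other.

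All 8 arrays lay on 1 slide, which was scanned once, with the medium arrays in its first row and the stimulated arrays in its second, so slide row and stimulation cannot be told apart. The WT arrays lay in its columns 1 and 2 and the KO arrays in columns 3 and 4, so slide column and genotype cannot be told apart either. On each array 58.4% to 69.2% of probes exceeded background by the scanner's own test. The Lsp1 level was between 6.99 and 7.48 on the WT arrays and between 3.48 and 3.69 on the KO arrays, which matches every genotype label. All 14 defining T cell markers were well above background on every array. The KO replicate 2 arrays stood apart from the other 6: against the WT mean of the same condition, the median of the 13 measured neutrophil markers of 15 listed was higher by 4.31 in medium and 3.97 after stimulation, compared with -0.49 and -0.73 on the KO replicate 1 arrays. Their summed signal was 1005000 on the KO replicate 2 medium array and 486200 on the stimulated one, and between 28900 and 71710 on the other 6 arrays, where between 0 and 3 of the 13 were not well above background. The 13 measured erythroid and platelet markers were shifted by 1.76 and 1.96 on the same arrays, and the 19 measured mitosis genes by 1.24 and 1.26. For the brightest probe of each G1 gene, the KO and averaged stimulation changes described below are also given without these arrays. For the related gene lists, counts of called genes, or for mitosis the median, are also given without them. Changes of single genes in those lists are from all 8 arrays, except that of Mdm2, which is also given without them.

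Stimulation moved the G1 genes in both directions. In WT cells 3 of the 9 measured genes passed the test across all genes (limma, Benjamini-Hochberg adjusted p below 0.05), all of them upward: Ccnd2, Cdk4 and Cdkn1a. This compares with 10.3% of all genes in that comparison, 6.42% called upward and 3.84% downward. In KO cells 2 of 9 passed, Ccnd2 and Cdkn1a, both upward, against a background of 8.13% called, 5.85% upward and 2.27% downward. Averaged over both genotypes, which uses all 8 arrays, 6 of 9 passed against 24.5% of all genes: Ccnd2, Cdkn1a, Cdk6 and Cdk4 rose (12.2% of genes did) and Cdkn1b and Cdkn2c fell (12.3% did). At an unadjusted p below 0.05, 6 of 9 members passed in WT (29.5% of all genes), 5 in KO (25.4%) and 6 averaged (39.6%). The median change of the 9 was 0.04, beside -0.08 for all 15138 genes. With the arrays scaled to their median in place of the 75th percentile, 4 rose and 1 fell, as Cdkn2c no longer passed.

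**Figure D1:**
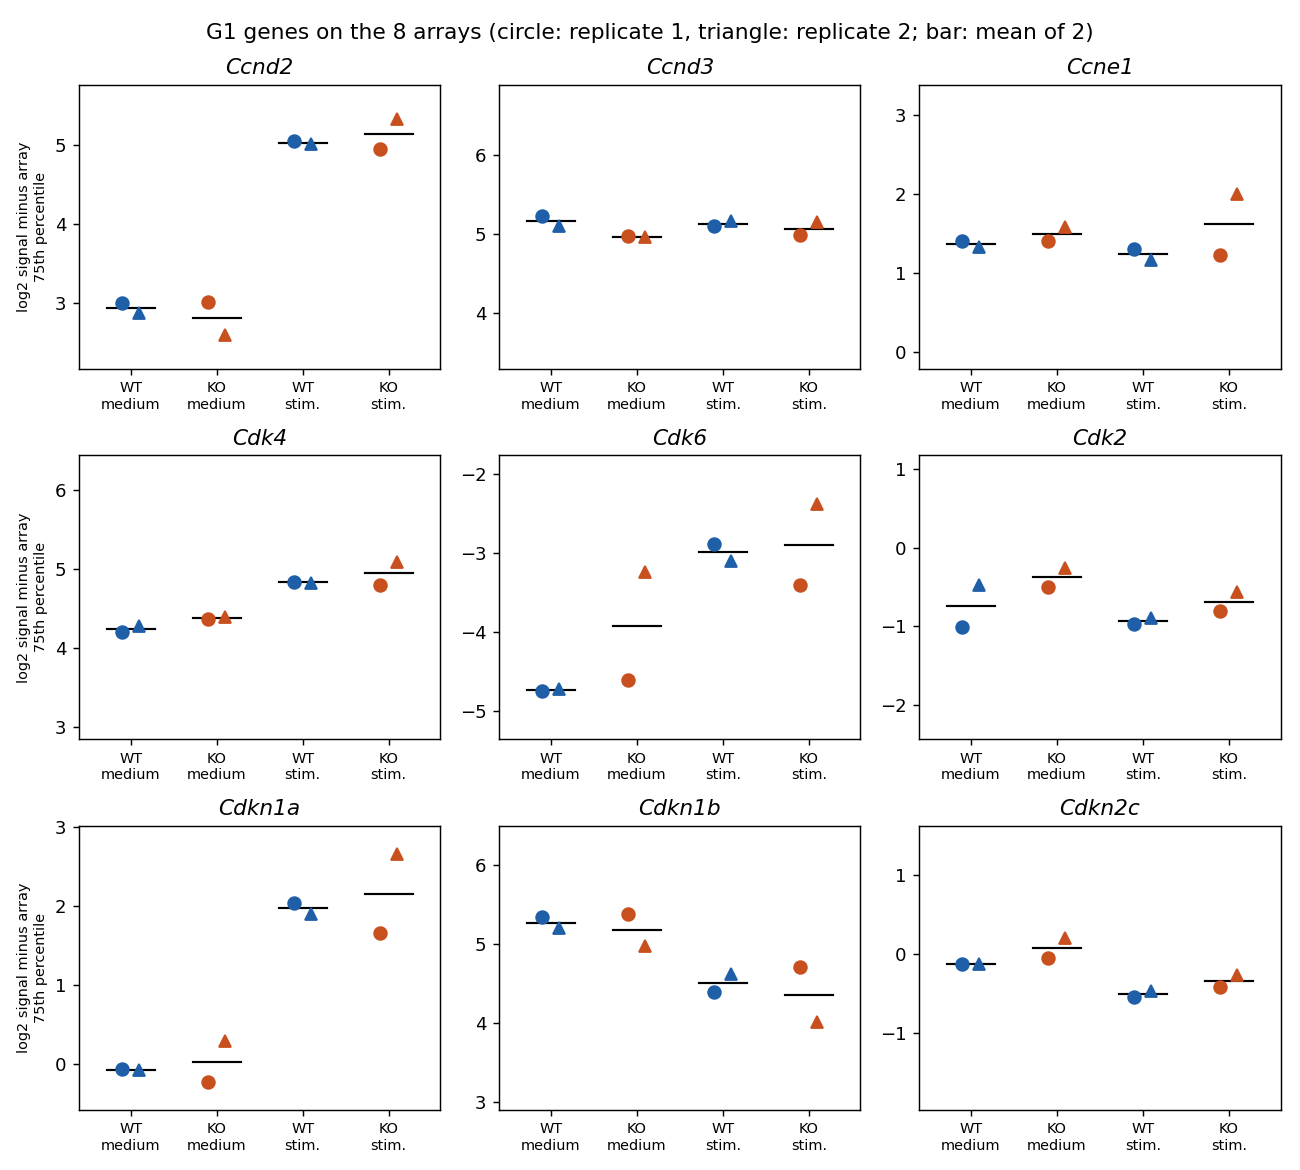
Each panel shows 1 gene; the vertical axis is the log2 signal minus the 75th percentile of the array and spans the same range in every panel, and the horizontal axis gives the 4 groups. Circles are replicate 1, triangles replicate 2, blue WT, orange KO, and bars the mean of 2 arrays. Ccnd2, Cdk4 and Cdkn1a are higher on all 4 stimulated arrays than on any medium array, and Cdkn1b and Cdkn2c are lower on all 4.

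Among the cyclins, Ccnd2 was the one that passed the test. Cyclin D2 is the D-type cyclin that lymphocytes induce when they are activated. Its level was 3.0 and 2.87 on the WT medium arrays, 5.05 and 5.01 on the WT stimulated arrays, 3.01 and 2.59 on the KO medium arrays, and 4.95 and 5.33 on the KO stimulated arrays. Every stimulated array was above every medium array. Ccnd2 rose 4.27-fold in WT cells (log2 change 2.09 ± 0.19 SE, adjusted p = 0.00351) and 5.05-fold in KO cells (2.33 ± 0.19, adjusted p = 0.0026). In size the WT change exceeded that of 98.5% of all genes. The call held in both genotypes whichever single array was left out, with a log2 change from 2.03 to 2.16 in WT cells and from 2.13 to 2.54 in KO cells. The KO change was 1.93 ± 0.14 (adjusted p = 0.0171) without both KO replicate 2 arrays, and the averaged one 2.01 ± 0.09 (adjusted p = 0.00202). When the KO arrays were fitted without the WT arrays the adjusted p was 0.0658, and 0.251% of all genes passed in that smaller fit.

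Ccnd3, the D-type cyclin that is already present in many resting lymphocytes, gave 5.22 and 5.10 in WT medium, 5.10 and 5.16 in WT stimulated, 4.98 and 4.96 in KO medium, and 4.98 and 5.16 in KO stimulated cells. These groups overlapped. The averaged log2 change was 0.04 ± 0.08 (95% interval -0.16 to 0.24, adjusted p = 0.773), and -0.01 ± 0.09 without both KO replicate 2 arrays. Its second probe, for another transcript accession, gave 0.29 ± 0.11 (adjusted p = 0.0938 among 19727 probes), and the sign of the brighter probe's WT change turned from -0.03 to 0.11 when both probes were averaged. The within-array difference between the Ccnd2 and Ccnd3 probes went from -2.23 on both WT medium arrays to -0.05 and -0.16 on the WT stimulated arrays, and from -1.96 and -2.36 to -0.04 and 0.18 in KO cells. Only the change in such a difference can be read, and it showed that these D-type cyclins responded unequally.

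Ccne1, which encodes the cyclin E that partners Cdk2, lay at 1.41 and 1.33 in WT medium and at 1.30 and 1.17 in WT stimulated cells. On the KO arrays it lay at 1.40 and 1.58 in medium and at 1.23 and 2.0 after stimulation. The highest value was that of the KO stimulated replicate 2 array, and the groups overlapped. Ccne1 did not pass in WT (-0.13 ± 0.25, adjusted p = 0.757) or KO cells (0.12 ± 0.25, adjusted p = 0.799), and without both KO replicate 2 arrays the KO value was -0.17 ± 0.15. The averaged interval, -0.44 to 0.42, leaves room for changes of that size in either direction. Without both KO replicate 2 arrays the averaged Ccne1 change was -0.15 ± 0.09. Its second probe gave -0.29 ± 0.18 (adjusted p = 0.281). For Ccne2, the other cyclin E gene, signals ran from 4.77 to 22.2 units and no fold was computed.

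Of the kinases, Cdk4 rose by the smaller amount and with the smaller error. Its level was 4.20 and 4.28 in WT medium and 4.84 and 4.82 in WT stimulated cells. In KO cells it was 4.37 and 4.40 in medium and 4.80 and 5.09 after stimulation. All 4 stimulated arrays exceeded all 4 medium arrays, as they did for 15.6% of genes. Cdk4 rose 1.51-fold in WT cells (log2 change 0.60 ± 0.13, adjusted p = 0.0412), and the KO value, 0.56 ± 0.13, did not pass (adjusted p = 0.0536). Averaged over genotypes it was 0.58 ± 0.09 (adjusted p = 0.00854), and it passed with each of the 8 arrays left out in turn (adjusted p 0.00722 to 0.0485). Leaving out both KO replicate 2 arrays gave 0.43 ± 0.13 in KO cells (adjusted p = 0.194) and 0.51 ± 0.08 averaged (adjusted p = 0.0249). Both other Cdk4 probes passed as well, at 0.67 ± 0.13 (adjusted p = 0.0171) and 0.71 (adjusted p = 0.0106). The WT call alone was less stable: it held without KO replicate 1 or 2 of the stimulated arrays and was lost without any of the other 6 (adjusted p up to 0.227).

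The sequence upstream of Cdk4 is shown because a motif search found matches in it, so it was picked after the search. The window of Cdk6, the other kinase that rose, is given beside it. Windows of 250 bases before the transcript start were taken from RefSeq on GRCm38.p6, and 8 of the 10 genes have one (Ccnd2 and Ccne2 have none). Capitals mark CACGTG, the E-box bound by Myc and its relatives, which reads the same on both strands. The windows are chr10:127063285-127063534 and chr5:3343643-3343892, both on the plus strand:

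Cdk4: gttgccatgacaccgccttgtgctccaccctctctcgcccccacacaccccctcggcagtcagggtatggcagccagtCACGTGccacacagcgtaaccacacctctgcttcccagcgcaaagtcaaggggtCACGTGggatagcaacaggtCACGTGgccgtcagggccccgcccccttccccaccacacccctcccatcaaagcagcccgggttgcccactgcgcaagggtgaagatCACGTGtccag

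Cdk6: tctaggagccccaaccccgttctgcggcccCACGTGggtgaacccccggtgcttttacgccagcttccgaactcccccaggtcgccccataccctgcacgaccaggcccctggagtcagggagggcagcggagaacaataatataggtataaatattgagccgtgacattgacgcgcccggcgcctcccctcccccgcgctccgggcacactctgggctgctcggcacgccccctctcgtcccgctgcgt

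Cdk4 had 4 copies, starting at positions -172, -118, -98 and -11 from the transcript start, and Cdk6 had 1, at -220. At least 1 copy lay in 6.02% of all 32851 such windows and at least 4 copies in 7 windows (0.0213%). None of the other 6 genes with a window had this motif, among them Cdkn1a, which also rose. Of other motifs searched on both strands, an E2F site (TTTCCCGC, TTTCGCGC, TTTGCCGC or TTTGGCGC; 1.86% of windows) lay at -140 of Cdk2, and a FoxO site (GTAAACA; 3.17% of windows) at -243 in 1 of the 2 windows of Ccnd3. A STAT site (TTCNNNGAA; 7.02%) and an AP-1 site (TGANTCA; 6.75%) matched in none of the 8 genes, and the Sp1 GC box (GGGCGG; 32.7%) in 7 of them. These are matches of letters and not measured binding, and a part of Myc in the change of either kinase was not tested.

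Cdk6, which like Cdk4 binds D-type cyclins and is the more prominent of the pair in many blood cells, was read from a dim probe. It lay at -4.75 and -4.72 in WT medium, -2.88 and -3.10 in WT stimulated, -4.61 and -3.24 in KO medium, and -3.41 and -2.38 in KO stimulated cells. In WT cells the stimulated arrays were both clearly higher, whereas in KO cells the medium array of replicate 2 was above the stimulated array of replicate 1. Between KO arrays of the same number, which the labels do not pair, the level rose from -4.61 to -3.41 and from -3.24 to -2.38. Cdk6 rose when averaged over genotypes (log2 change 1.39 ± 0.36, adjusted p = 0.0372). It did not pass in WT (1.74 ± 0.50, adjusted p = 0.0823) or in KO cells (1.04 ± 0.50, adjusted p = 0.261). Without both KO replicate 2 arrays the WT change passed (adjusted p = 0.00561) and the KO change was 1.21 ± 0.17 (adjusted p = 0.0516). The averaged change was then 1.47 ± 0.10 (adjusted p = 0.00462). With background corrected on the median spot signal and all arrays the averaged change was 0.73 (adjusted p = 0.0482). It was lost without 6 of the 8 arrays, the exceptions being KO medium replicate 2 and KO stimulated replicate 1.

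Cdk2, the partner of the E cyclins, did not pass. Its level was -1.01 and -0.47 in WT medium, -0.97 and -0.89 in WT stimulated, -0.50 and -0.26 in KO medium, and -0.81 and -0.56 in KO stimulated cells. The 2 WT medium arrays differed by more than the stimulated and medium means did. The averaged change was -0.25 ± 0.15 (95% interval -0.61 to 0.11, adjusted p = 0.253), and -0.25 ± 0.18 without both KO replicate 2 arrays.

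**Figure D2:**
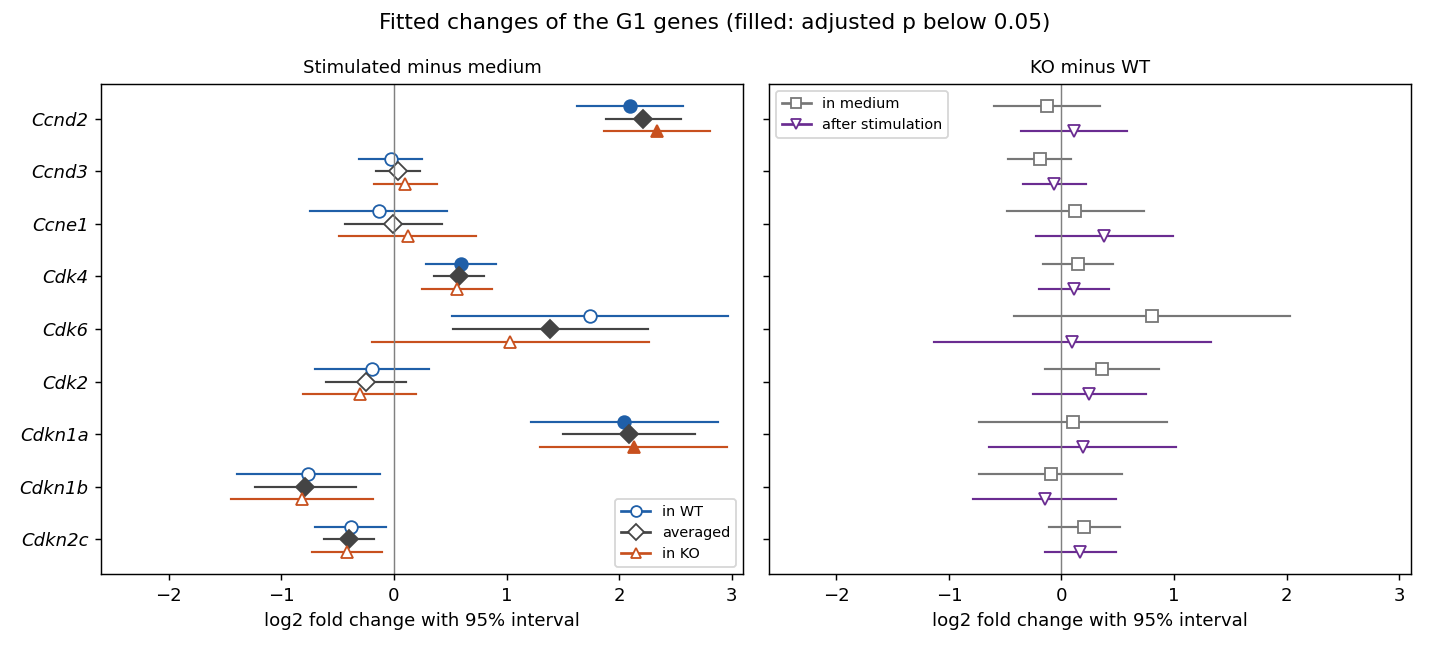
The left panel gives the log2 change from medium to stimulation in WT cells (blue circles), in KO cells (orange triangles) and averaged (grey diamonds), and the right panel the KO minus WT difference in medium (squares) and after stimulation (inverted triangles). Lines are 95% intervals from the limma fit over 8 arrays, and filled symbols have an adjusted p below 0.05. Ccnd2 and Cdkn1a stand near 2 in both genotypes, Cdkn1b stands near -0.8, and every interval in the right panel spans 0.

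The inhibitors split. Cdkn1a, which encodes the Cip/Kip inhibitor induced by p53 and by several mitogenic signals, was at -0.07 and -0.08 in WT medium and at 2.04 and 1.90 in WT stimulated cells. In KO cells it was at -0.23 and 0.28 in medium and at 1.65 and 2.66 after stimulation. Every stimulated array lay above every medium array, and the KO replicate 2 arrays were the highest of their condition. The rise was 4.13-fold in WT cells (log2 change 2.05 ± 0.34, adjusted p = 0.021) and 4.38-fold in KO cells (2.13 ± 0.34, adjusted p = 0.0187). Without both KO replicate 2 arrays it was 2.05 ± 0.10 in WT and 1.88 ± 0.15 in KO cells (adjusted p = 0.0033 and 0.0186), and 1.96 ± 0.09 averaged (adjusted p = 0.00222). The WT call was lost without any 1 of the 4 WT arrays (adjusted p up to 0.132), and the KO call without any 1 of the 4 medium arrays (up to 0.0839). The averaged change, 2.09 ± 0.24 (adjusted p = 0.00306), passed in all 8. The value comes from a probe printed in 10 spots; a second probe, for a transcript variant, was well above background on 3 arrays and gave 0.31 (adjusted p = 0.421), and averaging both gave 1.0 in WT and 1.39 in KO cells, neither of which passed (adjusted p = 0.115 and 0.0634).

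Cdkn1b, the Cip/Kip inhibitor of resting lymphocytes, went the other way. It lay at 5.34 and 5.2 in WT medium and at 4.39 and 4.62 in WT stimulated cells. In KO cells it lay at 5.38 and 4.97 in medium and at 4.70 and 4.01 after stimulation. All 4 stimulated arrays were below all 4 medium arrays, as for 16% of genes, and KO replicate 2 was the lowest in each condition. Averaged over genotypes Cdkn1b fell 1.73-fold (log2 change -0.79 ± 0.18, adjusted p = 0.0286). The change was -0.76 ± 0.26 in WT cells (adjusted p = 0.117) and -0.82 ± 0.26 in KO cells (adjusted p = 0.118). Without both KO replicate 2 arrays it passed in WT cells (-0.76 ± 0.13, adjusted p = 0.0316) and not in KO cells (-0.68 ± 0.18, adjusted p = 0.155), with an averaged value of -0.72 ± 0.11 (adjusted p = 0.0235). The averaged call was lost without any 1 of the 4 WT arrays or without KO medium replicate 1 (adjusted p up to 0.102). The within-array value of the Cdkn1a probe minus the Cdkn1b probe went from a mean of -5.35 in medium to -2.54 after stimulation in WT cells, and from -5.15 to -2.20 in KO cells, so that these inhibitors responded unequally.

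Cdkn2c, an INK4 inhibitor of Cdk4 and Cdk6, was at -0.12 on both WT medium arrays and at -0.55 and -0.47 on the WT stimulated arrays. On the KO arrays it was at -0.04 and 0.20 in medium and at -0.42 and -0.26 after stimulation. The stimulated arrays were again all below the medium arrays. Cdkn2c fell 1.32-fold when averaged (log2 change -0.40 ± 0.09, adjusted p = 0.0263), with -0.38 ± 0.13 in WT and -0.42 ± 0.13 in KO cells (adjusted p = 0.113 and 0.11). Leaving out both KO replicate 2 arrays gave -0.37 ± 0.13 in KO cells (adjusted p = 0.238) and -0.38 ± 0.08 averaged (adjusted p = 0.0448). With single arrays left out it passed without KO medium replicate 1 or KO stimulated replicate 2 and was lost without any of the other 6 arrays (adjusted p up to 0.114).

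By Euclidean distance between centred profiles over the 8 arrays, the genes most like Ccnd2, which had the largest rise, were Areg (distance 0.35), Pcsk4 (0.36), Bcl2l1 (0.37), Tbx21 (0.40) and Rnf19b (0.41). Those most like Cdkn1b, which had the largest fall, were Itga4 (0.13), Rasa3 (0.16), Jakmip1 (0.16), Pisd-ps2 (0.18) and Stk10 (0.19). The distances share arrays and scaling and are given as a description.

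Whether loss of Lsp1 changed these genes was asked in each condition. No measured member passed in medium or after stimulation (limma, 0 of 9 in each; 0.00661% and 0.0198% of all genes did), none did at an unadjusted p below 0.05 (5.71% and 5.03% of genes), and none did under limma's trended and robust fit. In medium the KO minus WT differences ran from -0.19 (Ccnd3) to 0.81 (Cdk6), and after stimulation from -0.15 (Cdkn1b) to 0.38 (Ccne1). Averaged over both conditions the count was again 0 of 9 (limma; 0.00661% of genes), also at an unadjusted p below 0.05 (8.18%) and under the trended and robust fit. For Ccnd2 the difference was -0.13 (95% interval -0.60 to 0.34) in medium and 0.11 (-0.36 to 0.58) after stimulation. For Cdkn1a it was 0.10 (-0.73 to 0.93) and 0.19 (-0.65 to 1.02). The narrowest pair was that of Ccnd3, at -0.19 (-0.47 to 0.09) and -0.06 (-0.34 to 0.22). With 2 arrays a group, genotype effects of the sizes within those intervals remain possible. The intervals are not adjusted for the number of genes, so effects outside them need not have passed the test either. In medium both KO arrays lay above both WT arrays for Cdk4, Cdk6 and Cdkn2c (12.8% of genes) and below them for Ccnd3 (21.3%). After stimulation both lay above for Cdk2 and Cdkn2c (13.2%) and below for no member (24.7%). Cdkn2c was thus the member that separated in both conditions, with KO minus WT differences of 0.20 (95% interval -0.11 to 0.52) and 0.17 (-0.15 to 0.48). From the WT mean, KO replicate 1 deviated by 0.08 in medium and 0.09 after stimulation, and KO replicate 2 by 0.32 and 0.24. The share of all genes that separate in both conditions is not given here.

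The stimulation response itself was compared between genotypes by the interaction term. It passed for no member (limma, 0 of 9; 0.00661% of all genes passed), and no member had an unadjusted p below 0.05 (3.03% of genes) or passed the trended and robust fit. The largest estimate was that of Cdk6, whose log2 change was lower in KO than in WT cells (KO minus WT -0.71 ± 0.71, 95% interval -2.44 to 1.03, adjusted p = 1).

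Several genotype differences followed the KO replicate 2 arrays. Against the WT mean of the same condition, these arrays deviated more than KO replicate 1 for 9 of 9 members in medium and for 8 of 9 after stimulation. The 2 KO arrays had opposite signs for 3 and 7 of the 9. The shares of all genes that did so are not given here, so these counts are not read as a trait of the G1 genes. Over all genes the root mean square SD within a group was 0.43 in KO medium and 0.45 in KO stimulated cells. It was 0.25 in both WT groups. In medium Cdk6 deviated by 0.12 on replicate 1 and by 1.49 on replicate 2. After stimulation Ccne1 deviated by 0.00 and 0.76, Cdkn1a by -0.32 and 0.69, and Cdkn1b by 0.19 and -0.50. On the same replicate 2 arrays the 24 S phase genes had a median deviation of 0.46 in medium and 0.49 after stimulation, and the 14 T cell markers one of -0.37 and -0.29. Without these arrays the KO minus WT difference after stimulation was -0.42 ± 0.14 for Cdk6, -0.32 ± 0.13 for Cdkn1a and -0.00 ± 0.13 for Ccne1, and no member passed in either condition. What part the other cell types had in these values was not tested. In bulk RNA of this kind, fewer cells of a type and less RNA per cell cannot be told apart.

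**Figure D3:**
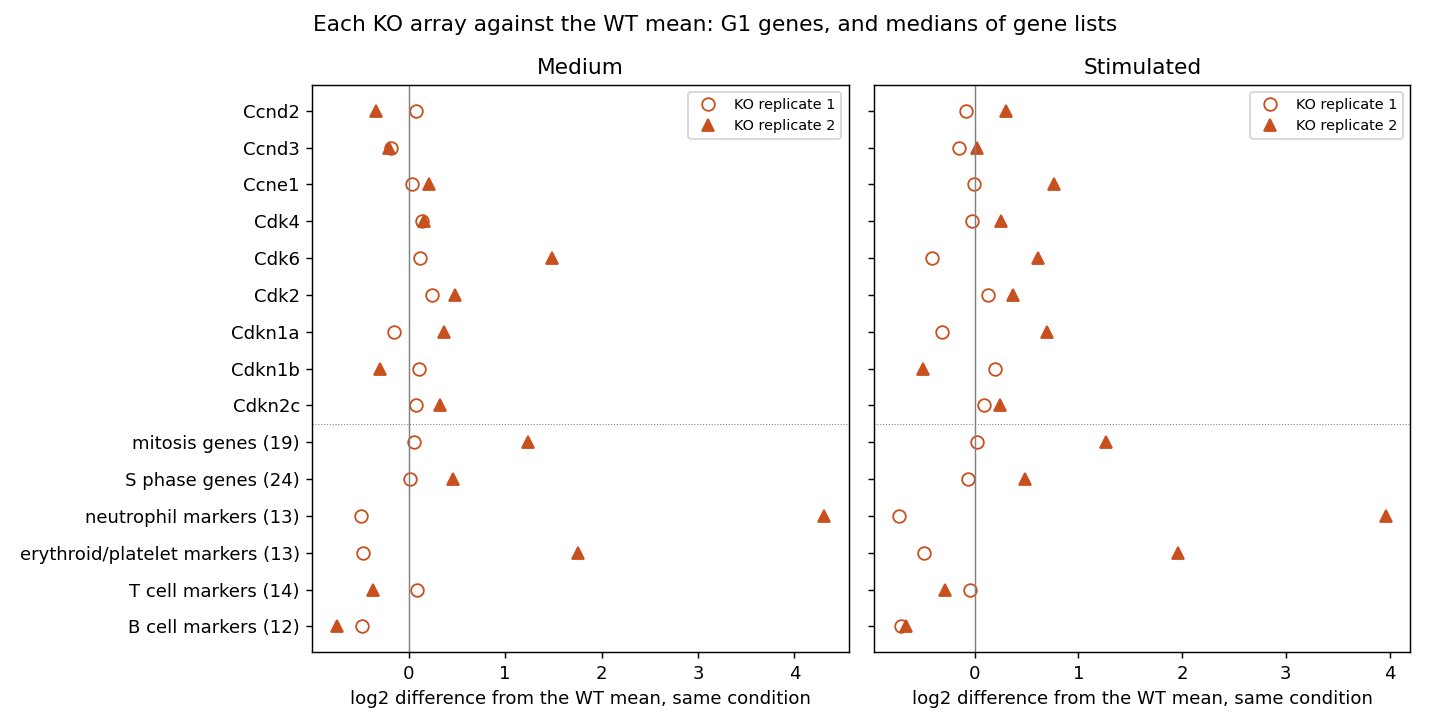
The horizontal axis is the log2 difference of each KO array from the WT mean of the same condition, in medium (left) and after stimulation (right). The upper 9 rows are G1 genes and the lower 6 rows are medians of gene lists, with the number of measured genes in parentheses. Open circles, KO replicate 1, lie within 0.42 of 0 for every G1 gene, while filled triangles, KO replicate 2, reach 1.49 for Cdk6 and 4.31 for the neutrophil markers.

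The genes around this set were read from related lists, with values averaged over genotypes; over all genes 12.2% rose, 12.3% fell and the median was -0.08. Of 31 measured other G1 regulators, 2 rose and 6 fell (median -0.07). With single arrays left out 0 to 4 rose and 1 to 5 fell, the fewest falls being without either WT stimulated array, and without both KO replicate 2 arrays 2 rose and 4 fell. Of the 31, 8 rose and 7 fell at an unadjusted p below 0.05, and 6 rose and 6 fell under the trended and robust fit. The INK4 gene Cdkn2d fell in both genotypes and on average (log2 change -0.74 ± 0.10, adjusted p = 0.00479). Cdkn2b, its INK4 relative, fell by 0.37 ± 0.08 on the log2 scale (adjusted p = 0.0259), and Cdkn2a gave -0.16 ± 0.10 (adjusted p = 0.292). With Cdkn2c, 3 of the 4 INK4 genes passed downward, beside 12.3% of all genes. Of these, Cdkn2d passed with every single array left out (adjusted p up to 0.0311), whereas Cdkn2b and Cdkn2c were each lost without 6 of the 8 arrays. Cdkn1c, the remaining Cip/Kip gene, fell by 0.62 ± 0.12 (adjusted p = 0.0151; lost without WT medium replicate 1 or either WT stimulated array), so that Cdkn1a was the one inhibitor of the 7 that rose. Rb1, the retinoblastoma gene itself, fell by 0.41 ± 0.08 (adjusted p = 0.0139), and Tfdp2, a dimer partner of E2F factors, by 0.57 ± 0.14 (adjusted p = 0.0348). The genes that rose were E2f4 (0.42 ± 0.11, adjusted p = 0.0383), a repressive E2F, and Ccnh (0.34 ± 0.09, adjusted p = 0.0461). Ccnh encodes a subunit of the kinase that activates cyclin-dependent kinases. E2f4 lost its call in 9 of 22 alternative settings and Ccnh in 12. Ccnh and the sixth gene that fell, Fbxw7 (lost in 14), were named after their values were seen.

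Ccnd1, the D-type cyclin that T cells make little of, did not pass on stimulation (averaged 0.21 ± 0.13, adjusted p = 0.291). Its KO minus WT difference was -1.27 ± 0.19 in medium and -1.06 ± 0.19 after stimulation, with group means of -1.67 and -1.57 in WT and -2.94 and -2.63 in KO cells. Neither passed (limma, adjusted p = 0.343 and 0.344, unadjusted p = 0.000498 and 0.00129). Leaving out single arrays kept the values between -1.45 and -0.89. Averaged over conditions the difference was -1.16 ± 0.13 and did not pass (adjusted p = 0.0872). All 12 measured B cell markers had a negative KO minus WT difference in both conditions, though none passed (medians -0.57 and -0.66, with summed signals from 53600 to 86790 on the WT arrays and from 39200 to 69580 on the KO arrays, all above background). Their part in the Ccnd1 value was not tested, nor was that of any other difference between the WT and KO mice.

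Among genes downstream of the G1 kinases, of 24 S phase genes of the E2F programme 1 rose, the helicase subunit Mcm2 (0.63 ± 0.12, adjusted p = 0.0145), and none fell (limma; median -0.01), beside 12.2% and 12.3% of all genes. At an unadjusted p below 0.05, 1 rose and 5 fell, and 2 fell under the trended and robust fit. Mcm2 was lost without WT medium replicate 1 or either WT stimulated array, 2 genes fell without WT medium replicate 2, and 2 rose without both KO replicate 2 arrays. Ccna2, the S phase cyclin that follows Ccne1 as a partner of Cdk2, gave -0.05 ± 0.41 (adjusted p = 0.941). Of 19 measured mitosis genes 1 fell, the phosphatase gene Cdc25b (-1.46 ± 0.16, adjusted p = 0.00268), and none rose (limma; median -0.16). The counts were the same, 1 and 0, at an unadjusted p below 0.05 and under the trended and robust fit. Without both KO replicate 2 arrays the mitosis median was -0.15.

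The growth signal list and the FoxO and quiescence list had medians further from that of all genes than the S phase and mitosis lists. They were drawn up with earlier results of these data known, and a link to the G1 genes was not tested. Of 17 growth signal genes 11 rose and none fell (limma; also none at an unadjusted p below 0.05 or under the trended and robust fit; median 1.14; 10 or 11 rose with single arrays left out, and 11 rose and 1 fell without both KO replicate 2 arrays), among them Il2 (log2 change 6.33), Irf4 (4.05), Myc (3.77) and Il2ra (3.70), as did Stat5a (1.14), which encodes a transcription factor downstream of the interleukin-2 receptor. Of 18 FoxO targets and quiescence genes 8 fell and 1 rose (median -0.56), beside 12.3% and 12.2% of all genes. The fall count ran from 3 (without WT medium replicate 1) to 11 (without KO stimulated replicate 1) with single arrays left out, and was 4 and 5 without WT stimulated replicates 1 and 2. At an unadjusted p below 0.05, and also under the trended and robust fit, 12 fell and 1 rose. The largest falls were those of Tob1 (-1.51), an antiproliferative factor, S1pr1 (-1.36), Pik3ip1 (-1.34) and Ccng2 (-1.26), an atypical cyclin linked to cell cycle arrest. Foxo4 fell as well (-0.79 ± 0.13, adjusted p = 0.00962), and Foxo1 gave -0.40 ± 0.12 (adjusted p = 0.0587). The gene that rose was Slfn2 (0.51 ± 0.12, adjusted p = 0.0301), named after its value was seen. Without both KO replicate 2 arrays 10 genes of the list fell and none rose, so Slfn2 no longer passed.

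Cdkn1a is a classical p53 target, and the other 15 measured genes of that list went both ways: 4 rose and 3 fell (median -0.02), beside 12.2% and 12.3% of all genes. With single arrays left out 1 to 3 rose, fewest without WT stimulated replicate 2, and 1 to 5 fell, fewest without WT medium replicate 1 or either WT stimulated array and most without KO stimulated replicate 1. The counts were 2 and 3 without both KO replicate 2 arrays. At an unadjusted p below 0.05, 6 rose and 6 fell, and 5 rose and 5 fell under the trended and robust fit. Phlda3, which encodes an inhibitor of Akt signalling, rose by 2.09 ± 0.07 (adjusted p = 8.07e-05) and the death receptor gene Fas rose by 0.83 ± 0.15 (adjusted p = 0.0127). Sesn1 (-1.21 ± 0.19, adjusted p = 0.00803) and Bbc3 (-0.70 ± 0.13, adjusted p = 0.0151) fell, and Mdm2, which encodes the ubiquitin ligase of p53, gave 0.03 ± 0.08 (adjusted p = 0.84). A part of p53 in the rise of Cdkn1a was not tested.

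**Figure D4:**
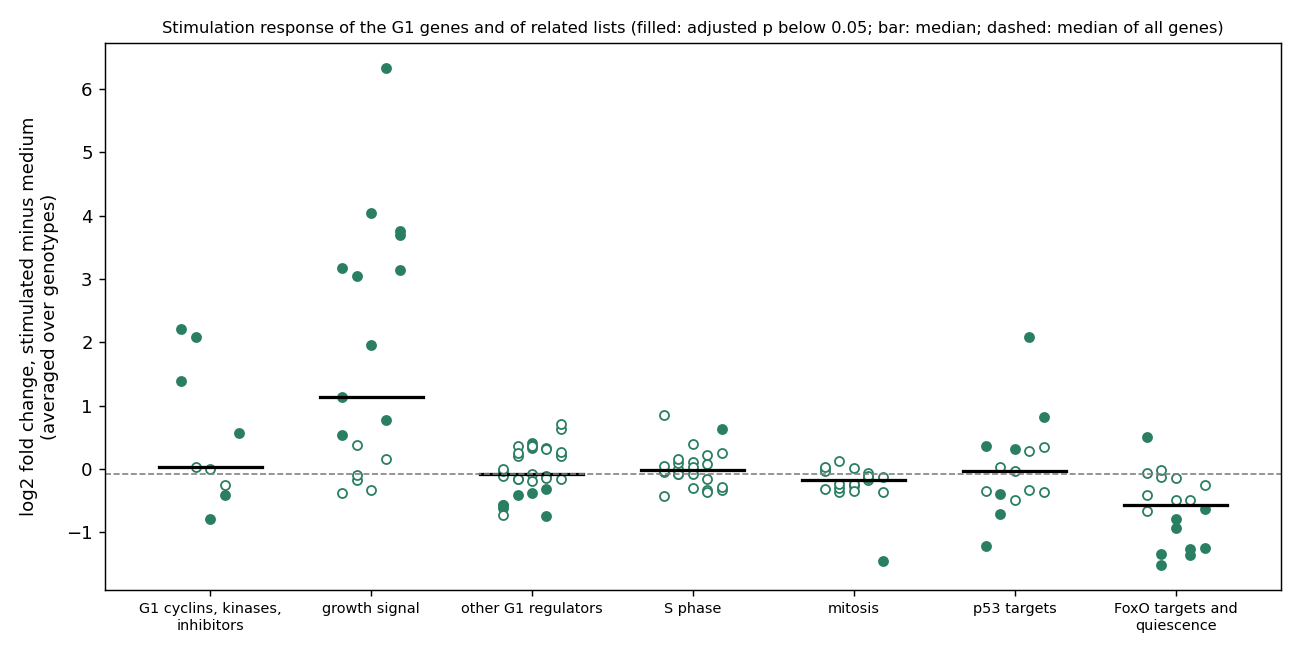
The vertical axis is the log2 change from medium to stimulation averaged over genotypes, and each point is 1 gene of the G1 set or of a related list. Filled points have an adjusted p below 0.05, bars are list medians and the dashed line is the median of all 15138 genes, -0.08. The growth signal list has its median at 1.14 and the FoxO and quiescence list at -0.56, while the S phase and mitosis lists stay near the dashed line.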

How the data were processed

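Total RNA of 8 samples was hybridised to 1-colour Agilent mouse arrays with Cy3. The deposited scanner tables hold spot intensity that, per the file headers, was processed by Agilent Feature Extraction 10.7.1.1, with the array design built on mm9; the authors' series table of intensity equals the scanner median signal. The background-subtracted processed signal was put on the log2 scale and scaled to the 75th percentile of each array over spots neither control nor marked as outliers; repeat spots were averaged. Accessions were matched to symbols through RefSeq (GRCm38.p6): 26056 of 55681 probes were named. Probes had to be well above background on both arrays of 1 or more groups (37255 were), and a gene was read from its brightest probe.

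Group means over all 8 arrays (4 residual degrees of freedom) were fitted with lmFit and eBayes of limma 3.58.1 (R 4.3.3; statmod 1.5.0), with Benjamini-Hochberg adjustment over 15138 genes and a call at an adjusted p below 0.05. The fit was tested on simulated data in which 200 of 15114 genes changed between WT medium and WT stimulated arrays. Of log2 changes of 1 in size 48% passed, and of 2 in size 79%, with 5 false calls. The simulation gave each gene the same spread in every group and changed few genes, whereas 10.3% of all genes passed in that comparison of the data. Its rates therefore do not carry over. Real changes of such size may also fail to pass, at a rate not known from it. Exact permutation of 2 against 2 arrays cannot go below p = 0.333 and was not used. The number of arrays limits the precision. The members and lists were chosen with earlier results of these data known. All members are named; from each related list up to 4 called genes with the largest change and up to 4 tied by role to a member are named, with exceptions stated. Alternatives covered scaling, background, filters, probe choice, variance model, array weights, replicate blocks and arrays left out.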

Additional observations from a re-analysis of the deposited data

How the results depend on the processing

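Precision is limited by 2 arrays a group and, for Cdk6 and Ccne2, by signals near background. Of the counts of called members, 3 moved. For stimulation in WT cells, 3 as reported, the count was 5 with only the groups compared, 6 with array weights, 5 without both KO replicate 2 arrays, and 1 to 3 with single arrays left out. For KO cells, 2 as reported, it was 0 with only the groups compared, 1 with the mean of all probes, and 1 to 4 with single arrays left out. The averaged count, 6 as reported, was 3 to 5 with single arrays left out. The genotype and interaction counts were 0 under every alternative run. The causes were not tested.

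Replicate numbers are not stated to pair arrays, and same-numbered deviations correlated at 0.161 (WT medium and stimulated), 0.742 (KO medium and stimulated), -0.061 and -0.244 (WT and KO). With the replicate number as a block across groups the counts were 3 in WT, 2 in KO and 6 averaged; with a block within genotype they were 5, 5 and 6; with numbers crossed between genotypes they were 4, 2 and 6.

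Signs that turned belonged to values that did not pass. Median scaling gave 0.077 for Ccnd3 in WT, 0.0417 for Ccne1 averaged and 5e-04 for Cdkn1b (KO minus WT, medium). The mean of all probes gave 0.11 for Ccnd3 in WT, -0.0088 for Ccne1 in KO, and, KO minus WT in medium, -0.0578 for Ccne1 and -0.22 for Cdkn1a. Without both KO replicate 2 arrays the stimulation changes were -0.17 for Ccne1 in KO and -0.0111 for Ccnd3 averaged; KO minus WT in medium was 0.0793 for Ccnd2, -0.16 for Cdkn1a and 0.11 for Cdkn1b, and after stimulation -0.0817 for Ccnd2, -0.004 for Ccne1, -0.0308 for Cdk4, -0.42 for Cdk6, -0.32 for Cdkn1a and 0.19 for Cdkn1b. Mdm2 averaged was -0.0082 there, -0.0022 with normexp background and -0.0045 from the series table.

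With single arrays left out, stimulation values that turned ran from -0.0906 to 0.0343 (Ccnd3, WT), -0.46 to 0.0734 (Cdk2, WT), -0.26 to 0.51 (Ccne1, KO), and averaged from -0.0065 to 0.0798 (Ccnd3), -0.20 to 0.19 (Ccne1), -0.42 to 0.32 (Ccna2) and -0.0276 to 0.0816 (Mdm2). KO minus WT in medium ran from -0.34 to 0.0793 (Ccnd2), -0.16 to 0.36 (Cdkn1a) and -0.30 to 0.11 (Cdkn1b). After stimulation it ran from -0.0817 to 0.30 (Ccnd2), -0.15 to 0.0224 (Ccnd3), -0.004 to 0.76 (Ccne1), -0.0308 to 0.25 (Cdk4), -0.42 to 0.61 (Cdk6), -0.32 to 0.69 (Cdkn1a) and -0.50 to 0.19 (Cdkn1b). Normexp on the mean signal was not run, since the median signal was used, and leaving out every replicate 2 array leaves no residual degrees of freedom. The background on the median signal, the crossed block and the fit of single probes were chosen after seeing the data.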
